A study of Homo sapiens with 12 samples.

Results

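The comparison described here was between U251 cells transfected with siPDL1-1, 1 of 2 siRNAs against *PD-L1*, and U251 cells transfected with the siRNA control (siNC), both stimulated with IFNγ. It covered 4 of the 12 libraries of the study, 2 for each siRNA, chosen by their labels. U251 cells are a long-established line from a human glioblastoma. The siRNA was present for 48 h before IFNγ was added at 100 U/ml for 24 h, and polyadenylated RNA was sequenced. The siPDL1-1 and siNC cells without IFNγ (2 libraries each) and the cells with the second siRNA, siPDL1-2, after IFNγ (2 libraries) were used only to show where the comparison differed. The knockdown was transient and in 1 cell line, no untransfected cells were among the libraries, and the sequences of the siRNAs were not used here.

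PD-L1, the product of *CD274*, is a surface ligand that restrains T cells through the receptor PD-1. IFNγ, a type II interferon, signals through the kinases JAK1 and JAK2 and induces genes with gamma-activated sites in their promoters, among them *IRF1*, *IDO1*, *CXCL10*, the guanylate binding proteins and *CD274* itself. Type I and type III interferons, which cells make when sensors detect double-stranded RNA or cytosolic DNA, act through a complex that includes STAT2 and IRF9 on interferon-stimulated response elements and induce antiviral genes such as *MX2*, *OAS1* and *IFIT1*.

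Values are the authors' normalized CPM, read counts scaled to a common library size, with the siNC libraries first and the siPDL1-1 libraries second, and each gene's 2 values per group are those of replicates 1 and 2. The log2 fold changes are on the scale of log2(CPM + 1), which makes them smaller for genes near or below 1 CPM. They are given with the FDR of limma's moderated test, which is its p-value after Benjamini-Hochberg adjustment across every gene tested. A gene was called, and is said to have risen or fallen, where its level differed by more than 1.5-fold at an FDR below 0.01. With 2 libraries a group, an exact permutation test of 1 gene could not have gone below a p of 0.3333. The labels number the libraries as replicates and the study's methods speak of independent experiments, and the p-values measure only the spread between these libraries.

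The siNC libraries held 55657393 and 50017519 reads on genes and the siPDL1-1 libraries 36339967 and 21870032, in a series that ranged from 17101069 to 55657393. *CD274* (PD-L1, ENSG00000120217, chromosome 9 of GRCh38 from 5450503 to 5470566, plus strand) was 71.2 and 76.0 CPM with siNC and 60.9 and 66.7 CPM with siPDL1-1. Both siPDL1-1 libraries lay below both siNC libraries, but the fold change of -0.20 on the log2 scale (standard error 0.0732) was not called (FDR = 0.0604), so the target of the siRNA was not shown to be lower after IFNγ in this comparison. Reads were counted on both strands, and those of *CD274* include any from the antisense *AL162253.2*. Of 14 glioma and astroglial markers, *VIM*, *TNC*, *CD44*, *SOX2* and *EGFR* were each above 100 CPM in all 4 libraries, *GFAP* was between 2.39 and 4.28 CPM, and *OLIG2* and *AQP4* were too low to be tested. Of the 12 tested, *SLC1A3* rose (log2 fold change 0.68, FDR = 2.01e-05 in limma), or 8.33% against 3.76% of all genes tested. Of 22 markers of other cell types 9 were tested, *CD3D*, *CD3E*, *MS4A1* and *AIF1* had no reads in any of the 4 libraries, and *PTPRC* was at most 0.166 CPM. The summed level of the 22 was 76.5 and 75.5 CPM with siNC and 113 and 117 CPM with siPDL1-1, most of it *CD68* (41.7 and 41.0 CPM with siNC and 74.6 and 80.2 CPM with siPDL1-1), which rose, as did *CDH5*, which was at most 1.05 CPM and whose call was lost without siNC replicate 1, siNC replicate 2 or siPDL1-1 replicate 1 (limma's FDR 0.0321 to 0.0513). The part of other cell types in the results below was not tested.

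Of 17148 genes tested, 946 (5.52%) were called with siPDL1-1 after IFNγ. A total of 644 rose (3.76%) and 302 fell (1.76%). The increases were the larger changes. Of the genes that rose, 163 passed 2-fold, 29 passed 4-fold and 13 passed 8-fold, whereas of those that fell 25 passed 2-fold, 2 passed 4-fold and 0 passed 8-fold. The siPDL1-1 and siNC libraries did not overlap for any of the 946 called genes, which was also the case for 65.3% of all genes tested. Protein-coding genes made up 94.9% of the genes that rose, 89.4% of those that fell and 82.3% of all genes tested, by GENCODE annotation.

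**Figure D1:**
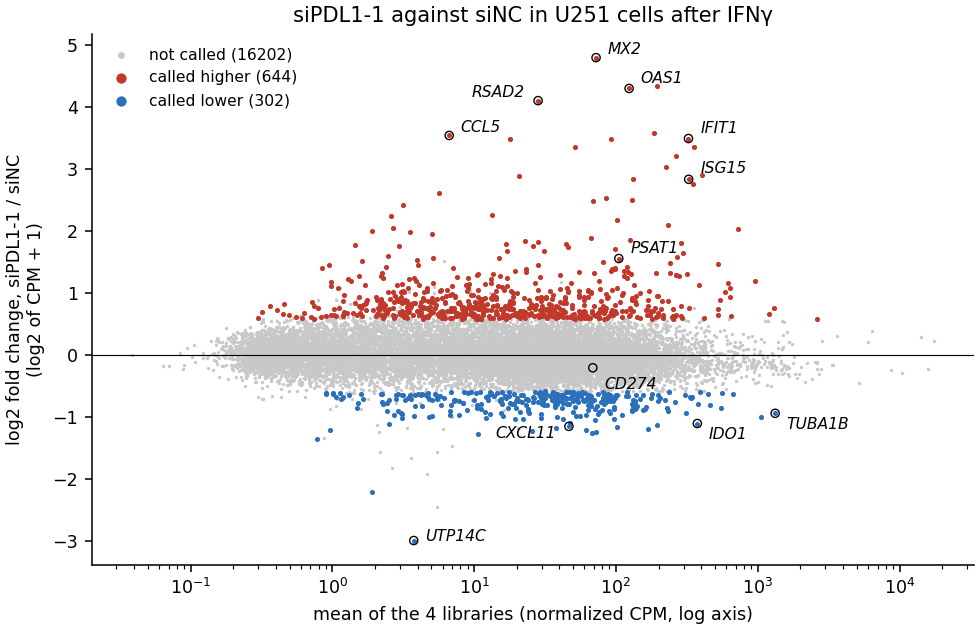
Each point is 1 of the 17148 genes tested, with its mean CPM over the 4 libraries on a log axis (x) and its log2 fold change, siPDL1-1 against siNC after IFNγ (y). The 644 genes called higher (red) reach a log2 fold change of 4.79 at *MX2*, and the 302 called lower (blue) reach -1.27 at *GPAT3* apart from *UTP14C* and *H2AC18*.

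Interferon-induced antiviral effectors, proteins that block steps of viral replication, rose as a group and held the highest increase. Of 41 genes of this list that were tested, 36 rose and 0 fell in limma, edgeR and DESeq2 alike, with a median log2 fold change of 1.29, against a median of -0.01 and 3.76% higher over all genes tested. *MX2* (ENSG00000183486), a GTPase that restricts retroviruses, was 4.16 and 4.07 CPM with siNC and 144 and 138 CPM with siPDL1-1. The means differed by 34.2-fold. On the log2 scale this was 4.79 (standard error 0.0848, FDR = 5.00e-11), the highest value of all called genes. Its neighbour on chromosome 21, *MX1*, was not called. *MX1* was 4.21 and 4.61 CPM with siNC and 4.14 and 4.19 CPM with siPDL1-1 (log2 fold change -0.07, FDR = 0.721).

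*RSAD2* encodes viperin, a radical enzyme that makes a chain-terminating nucleotide, and *CMPK2*, beside it on chromosome 2, encodes a mitochondrial nucleotide kinase. *RSAD2* was 2.27 and 2.18 CPM with siNC and 54.5 and 54.0 CPM with siPDL1-1 (log2 fold change 4.10, FDR = 1.13e-09). *CMPK2* was 2.15 and 2.05 CPM with siNC and 32.7 and 34.6 CPM with siPDL1-1 (log2 fold change 3.48, FDR = 2.54e-08). The 2 genes overlap on opposite strands, so reads of the overlap could not be assigned to a strand, but each rose by more than 8-fold.

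The IFIT1 protein binds viral RNA that lacks the host's cap methylation. *IFIT1* (ENSG00000185745) was 52.9 and 51.6 CPM with siNC and 581 and 613 CPM with siPDL1-1 (log2 fold change 3.49, FDR = 5.00e-11). *IFIT2* was 60.7 and 64.5 CPM with siNC and 645 and 659 CPM with siPDL1-1 (log2 fold change 3.36, FDR = 5.00e-11). *IFIT3* was 96.0 and 92.8 CPM with siNC and 699.7 and 721 CPM with siPDL1-1 (log2 fold change 2.90, FDR = 9.51e-11). These 3 genes overlap *LIPA* on the opposite strand, which averaged 125 CPM with a log2 fold change of 0.76. That level was less than each of them with siPDL1-1 but more than each of them with siNC. *IFIT5* rose less, from 65.1 and 68.0 to 156 and 170.5 CPM (log2 fold change 1.28).

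*IFI44L* (27.2 and 28.1 CPM with siNC, 322 and 359.8 CPM with siPDL1-1) and *IFI44* (30.4 and 32.7 CPM and 230.4 and 232 CPM) had log2 fold changes of 3.57 and 2.84. *IFI27*, a mitochondrial protein, was 8.84 and 7.72 CPM with siNC and 102 and 86.4 CPM with siPDL1-1 (log2 fold change 3.36, FDR = 2.36e-09). *IFI6*, an inhibitor of flavivirus replication at the endoplasmic reticulum, was 55.7 and 47.3 CPM with siNC and 501 and 461 CPM with siPDL1-1 (log2 fold change 3.20, FDR = 1.57e-08). In each of these genes the lower siPDL1-1 library was more than 4 times the higher siNC library.

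Other members rose from levels that were already high with siNC. *IFITM1*, which blocks fusion of enveloped viruses, was 575 and 581 CPM with siNC and 1351 and 1291 CPM with siPDL1-1 (log2 fold change 1.19, FDR = 8.35e-08), and its reads may include some of *IFITM2*, which overlaps it on the same strand. *HELZ2*, a nuclear helicase, was 336 and 241 CPM with siNC and 1272 and 1061 CPM with siPDL1-1 (log2 fold change 2.02, FDR = 9.63e-04), and this call was lost without siPDL1-1 replicate 1 (FDR = 0.0114 in limma). The ubiquitin ligase *RNF213*, outside the list but 1 of the 5 most abundant genes that rose, was 985 and 946 CPM with siNC and 1736 and 1522 CPM with siPDL1-1 (log2 fold change 0.75, FDR = 0.00128). The call of *RNF213* was lost when either siNC library or siPDL1-1 replicate 1 was left out, where limma's FDR was between 0.0128 and 0.0230. Besides *MX1*, the tested members that were not called were *APOL2*, *APOL3*, *APOL6* and *LGALS3BP*, with log2 fold changes from -0.06 to 0.56.

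The promoters of these genes are shown because those of the larger increases often held a shared sequence, as counted here. The RefSeq table of promoters (GRCh38.p14) had an entry for 12327 of the 17148 genes tested, and the 250 bases before the start were searched on both strands for GAAA followed after any 2 bases by GAAA, the core of the interferon-stimulated response element, and for TTCNNNGAA, the core of a gamma-activated site. The first was found in 3.48% of genes tested, in 9.55% of the genes that rose and in 4.82% of those that fell. It was found in 26.5% of genes that rose by more than 2-fold, in 60% (12 of 20) of those past 4-fold, and in 71.9% (23 of 32) of the antiviral effectors. TTCNNNGAA was found in 7.58% of genes tested, 8.70% of the genes that rose and 9.21% of those that fell, in 12.4% of genes past 2-fold, in 10% of those past 4-fold, and in 25% (8 of 32) of the antiviral effectors. Over all 35116 promoter windows of the table, the shares were 3.02% and 6.57%. Of the 15 genes with the largest increases 10 had an entry and 6 held the first motif. *OAS1*, *CMPK2*, *DDX58* and *HERC6* had an entry without it, which says only that these letters were not in these windows. Windows of *OAS1*, *DDX58* and *CMPK2* did hold GAAACGAAA or its reverse complement, a closer spacing that the search did not count.

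Windows of 3 genes that rose by more than 7-fold follow, each 5′ to 3′ on the strand of the gene, with matches to either motif in capitals. They lie at chr10:89392373-89392622 on the plus strand (*IFIT1*), chr10:89327747-89327996 on the plus strand (*IFIT3*) and chr1:27672193-27672442 on the minus strand (*IFI6*). The match nearest to the start ended 93, 112 and 83 bases before it. Another entry of *IFIT3* (chr10:89332279-89332528), not shown, held 2 matches to the first motif, the nearest 41 bases before its start.
IFIT1: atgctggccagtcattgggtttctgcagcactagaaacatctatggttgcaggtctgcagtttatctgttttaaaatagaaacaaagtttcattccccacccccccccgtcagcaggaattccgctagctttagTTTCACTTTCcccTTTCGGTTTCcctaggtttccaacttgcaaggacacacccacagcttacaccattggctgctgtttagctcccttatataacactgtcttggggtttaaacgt
IFIT3: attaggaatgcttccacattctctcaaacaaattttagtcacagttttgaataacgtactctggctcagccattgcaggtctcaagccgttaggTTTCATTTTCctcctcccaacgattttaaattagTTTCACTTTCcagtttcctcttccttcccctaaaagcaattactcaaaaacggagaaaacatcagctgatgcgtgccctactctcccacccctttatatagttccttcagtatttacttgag
IFI6: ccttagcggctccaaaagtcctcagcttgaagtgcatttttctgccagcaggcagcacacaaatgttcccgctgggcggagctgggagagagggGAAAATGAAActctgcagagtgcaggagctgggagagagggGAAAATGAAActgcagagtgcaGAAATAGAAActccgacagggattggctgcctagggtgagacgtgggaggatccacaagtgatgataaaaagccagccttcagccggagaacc

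For comparison, windows of 2 IFNγ-induced genes that fell with siPDL1-1 held TTCNNNGAA and no match to the first motif. They lie at chr4:76036071-76036320 on the minus strand (*CXCL11*) and chr5:132490774-132491023 on the minus strand (*IRF1*). This pattern was not particular to genes that fell. The windows of *OAS1* and *IFNB1*, which rose, also held TTCNNNGAA without a match to the first motif, although that of *OAS1* held GAAACGAAA. The window of *CD274*, which was not called, held both motifs.
CXCL11: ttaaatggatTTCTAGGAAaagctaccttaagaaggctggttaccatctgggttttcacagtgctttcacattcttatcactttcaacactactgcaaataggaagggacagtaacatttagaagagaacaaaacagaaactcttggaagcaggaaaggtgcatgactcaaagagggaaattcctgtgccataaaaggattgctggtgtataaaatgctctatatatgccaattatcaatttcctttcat
IRF1: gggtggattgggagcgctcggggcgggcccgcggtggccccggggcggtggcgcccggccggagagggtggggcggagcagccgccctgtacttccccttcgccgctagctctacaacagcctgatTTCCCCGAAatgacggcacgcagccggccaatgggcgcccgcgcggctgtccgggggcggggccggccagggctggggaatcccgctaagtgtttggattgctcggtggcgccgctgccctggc

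Sensors of double-stranded RNA and the enzymes they trigger formed the second group. Of 20 genes tested 13 rose (65%, against 3.76% of all genes), with a median log2 fold change of 1.38. The count of 0 that fell was the same in limma, edgeR and DESeq2, and 1 gene (*TBK1*, -0.18) was lower at an unadjusted p < 0.05. The OAS enzymes make 2-5-oligoadenylate, which activates RNase L. *OAS1* was 11.4 and 10.8 CPM with siNC and 239 and 234 CPM with siPDL1-1, a 21.3-fold difference of the means (log2 fold change 4.30, standard error 0.0821, FDR = 9.03e-11). *OAS2* was 16.9 and 17.7 CPM with siNC and 372 and 368 CPM with siPDL1-1 (log2 fold change 4.34, FDR = 5.00e-11). *OAS3* was 90.3 and 86.7 CPM with siNC and 630.2 and 583 CPM with siPDL1-1 (log2 fold change 2.76, FDR = 2.15e-10). These 3 genes are neighbours on chromosome 12, and the related *OASL*, elsewhere on that chromosome, rose from 14.1 and 14.4 to 173 and 165 CPM (log2 fold change 3.48).

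The cytosolic sensors rose as well. *DDX58*, which encodes RIG-I, was 47.9 and 49.0 CPM with siNC and 402 and 404 CPM with siPDL1-1 (log2 fold change 3.03, FDR = 1.19e-10). *IFIH1*, which encodes MDA5, was 52.3 and 55.3 CPM with siNC and 191 and 205 CPM with siPDL1-1 (log2 fold change 1.86, FDR = 1.57e-08). *DHX58*, which encodes their regulator LGP2, was 4.16 and 3.71 CPM with siNC and 22.8 and 22.4 CPM with siPDL1-1 (log2 fold change 2.26). The replicates of each sensor differed by far less than the groups did. *EIF2AK2*, the kinase PKR that halts translation, rose from 274 and 278 to 721 and 809.5 CPM (log2 fold change 1.47), and *ZBP1*, a sensor of Z-form nucleic acid, rose from 0.506 and 0.374 to 5.19 and 4.66 CPM (log2 fold change 2.04). *TLR3*, the endosomal receptor, had the smallest called increase of the list, from 36.0 and 36.9 to 60.2 and 64.3 CPM (log2 fold change 0.76, FDR = 2.03e-05). Of the adaptors and kinases that pass on the signal, *IKBKE* rose (0.82 on the log2 scale) and most were not called. *MAVS*, the mitochondrial adaptor, was 175 and 166 CPM with siNC and 196 and 178 CPM with siPDL1-1 (log2 fold change 0.13), and *TBK1* and *IRF3* had log2 fold changes of -0.18 and 0.08.

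ISG15 is a ubiquitin-like protein that is joined to other proteins by UBA7, UBE2L6 and HERC5 and removed by USP18. Of 6 genes of this pathway tested, 5 rose (83.3%, against 3.76% of all genes), with a median log2 fold change of 2.51. *ISG15* was 90.7 and 69.1 CPM with siNC and 616 and 527 CPM with siPDL1-1 (log2 fold change 2.83, FDR = 9.23e-06). The ligase *HERC5* was 24.6 and 24.4 CPM with siNC and 145 and 147 CPM with siPDL1-1 (log2 fold change 2.53, FDR = 1.26e-09). *HERC6*, next to it on chromosome 4, was 3.80 and 4.52 CPM with siNC and 36.7 and 37.3 CPM with siPDL1-1 (log2 fold change 2.88, FDR = 1.90e-08). *USP18*, which also blocks the type I interferon receptor, rose from 19.4 and 20.6 to 118 and 115 CPM (log2 fold change 2.49), and *UBA7* from 39.8 and 39.5 to 103 and 98.7 CPM (log2 fold change 1.32). *UBE2L6* was not called, at 248 and 248 CPM with siNC and 328 and 322 CPM with siPDL1-1 (log2 fold change 0.39, below the fold change threshold).

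Of 7 interferon-linked PARPs and partners tested, 3 rose (42.9%, against 3.76% of all genes, median log2 fold change 0.57). *PARP10* rose by 1.51, *PARP12* by 1.42 and *PARP9* by 0.63 on the log2 scale. *PARP9* overlaps *DTX3L*, its partner on the opposite strand, which had a log2 fold change of 0.57 and was not called. Of 16 genes of DNA sensing and nucleic acid restriction tested, 6 rose (37.5%, against 3.76% of all genes, median 0.39). They were *N4BP1* (1.35 on the log2 scale), the antiviral zinc-finger gene *ZC3HAV1* (1.32), *SLFN5* (1.31), the dNTP hydrolase *SAMHD1* (1.01), the exonuclease *TREX1* (0.94) and *IFI16* (0.65). *STING1* and 6 *APOBEC3* genes were not called.

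Transcripts of interferons themselves were scarce. Of 15 interferon genes listed, 3 had enough reads to be tested, and they passed the filter on low counts through the siPDL1-1 libraries alone, so that all 3 were called is no support for the list. *IFNL1*, a type III interferon, had 0 and 1 reads with siNC and 59 and 36 reads with siPDL1-1 (1.67 and 1.69 CPM). The ratio of the summed reads was 171 (95% exact interval 29.9 to 6817, which covers counting error only). *IFNL2* had 0 reads in both siNC libraries and 28 and 14 with siPDL1-1, at least 11.7-fold higher against 3 reads per siNC library, and it is nearly identical to *IFNL3*, so the reads of these genes are uncertain. *IFNB1*, the beta interferon, had 2 reads in each siNC library and 18 and 26 with siPDL1-1, a ratio of 19.8 (95% exact interval 7.20 to 75.8). None of the 3 had a read in the unstimulated siNC or siPDL1-1 libraries, and the interaction was called for *IFNL1* and *IFNL2* and not for *IFNB1* (FDR = 0.0399) in limma, and for 0 of the 3 in edgeR and DESeq2. Without unstimulated reads the limma interaction only restated the difference after IFNγ, so it is no separate support for a dependence on IFNγ. The alpha interferons listed had at most 2 reads in a library of this comparison and *IFNG* had 0. DESeq2's Wald test gave no FDR for these 3 genes, and the limma call of *IFNB1* was also lost in the fit of only the 4 libraries and without siNC replicate 2 or siPDL1-1 replicate 2 (FDR between 0.0108 and 0.0272).

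Among chemokines and cytokines, 4 of 17 genes tested rose (23.5%, against 3.76% of all genes, median 0.22). *CCL5*, a chemokine for T cells and monocytes, was 0.262 and 0.166 CPM with siNC, 14 and 8 reads, and 12.4 and 13.9 CPM with siPDL1-1 (log2 fold change 3.54, FDR = 2.10e-08). The means differed by 61.3-fold, the largest ratio of the 15 named increases, but it rests on few reads with siNC. *CCL5* passed the filter on low counts through the siPDL1-1 libraries alone, so its call is no support for the list. *TNFSF10*, the death ligand TRAIL, was 44.3 and 46.5 CPM with siNC and 146 and 156 CPM with siPDL1-1 (log2 fold change 1.71, FDR = 2.95e-08). *TNFSF13B*, the B-cell factor BAFF, and *LIF* rose by 0.77 and 0.74 on the log2 scale. *IL6* and *CXCL8* were not called, with log2 fold changes of -0.34 and -0.39, and of 16 NF-kB subunits and feedback genes 0 were called in limma, edgeR or DESeq2 (median -0.01, 2 higher and 3 lower at an unadjusted p < 0.05 in limma).

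Of 13 receptor and JAK-STAT genes tested, 3 rose (23.1%, against 3.76% of all genes, median 0.11). *STAT2*, which is used by type I and III interferons, was 134 and 132 CPM with siNC and 416 and 391 CPM with siPDL1-1 (log2 fold change 1.59, FDR = 1.57e-08). *IRF9*, its partner, was 76.7 and 70.6 CPM with siNC and 118 and 113 CPM with siPDL1-1 (log2 fold change 0.65, FDR = 4.65e-05). *JAK2* rose by 0.67 on the log2 scale, a call that was lost without siPDL1-1 replicate 2 (log2 fold change 0.58, under the fold threshold). The receptor genes *IFNGR1* and *IFNGR2* had log2 fold changes of 0.11 and -0.06, and *IFNAR1* of 0.52, with none of them called.

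Of 9 feedback inhibitors tested *USP18* and *SOCS1* rose (22.2%, against 3.76% of all genes, median 0.32). *SOCS1*, which binds JAK kinases, was 8.18 and 7.14 CPM with siNC and 26.6 and 26.4 CPM with siPDL1-1 (log2 fold change 1.67, FDR = 1.10e-06). It overlaps *RMI2* on the opposite strand, which averaged 12.1 CPM with a log2 fold change of 0.44. The other 7 feedback inhibitors, *SOCS3* among them (0.43), were not called. Of 7 interferon regulatory factors tested, the related *BATF2* among them, *IRF9* and *BATF2* rose (28.6%, against 3.76% of all genes) and *IRF1* fell (14.3%, against 1.76%). The median was 0.08. *BATF2* was 23.3 and 22.3 CPM with siNC and 55.9 and 58.7 CPM with siPDL1-1 (log2 fold change 1.29). *IRF1* (ENSG00000125347), the early transcription factor of the IFNγ response, was 549 and 531 CPM with siNC and 361 and 337 CPM with siPDL1-1 (log2 fold change -0.63, FDR = 2.83e-05). It overlaps *IRF1-AS1* on the opposite strand (mean 38.4 CPM), and its call was lost by the fold threshold without siPDL1-1 replicate 2 (log2 fold change -0.58).

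**Figure D2:**
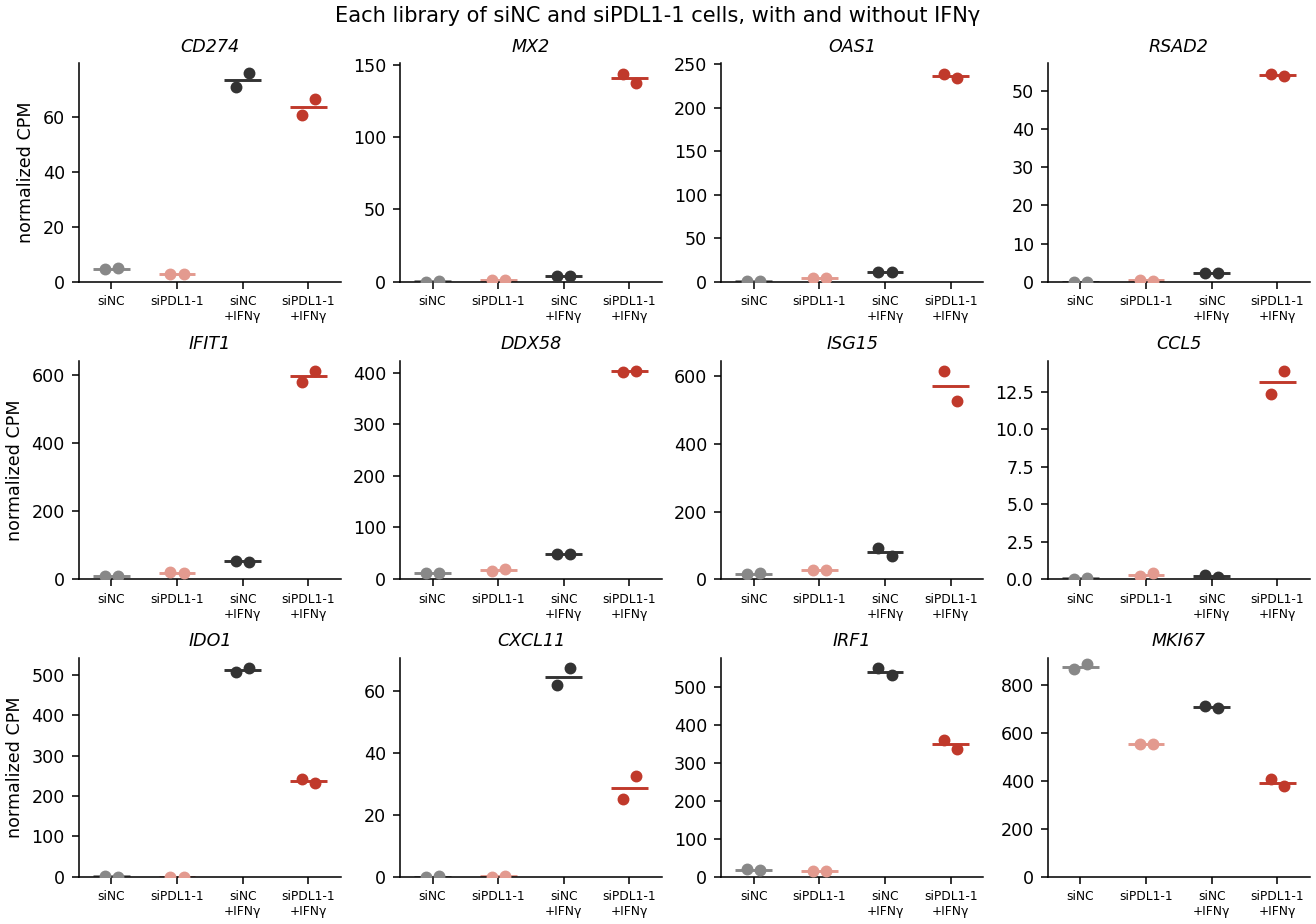
Each point is the normalized CPM of 1 library (y, linear axes from 0) and each line a group mean, for siNC and siPDL1-1 cells without (pale) and with IFNγ (dark), 2 libraries a group. *MX2*, *OAS1*, *RSAD2*, *IFIT1*, *DDX58*, *ISG15* and *CCL5* are far higher in the siPDL1-1 libraries after IFNγ than in the 3 other groups, whereas *IDO1*, *CXCL11*, *IRF1* and *MKI67* are lower there than with siNC after IFNγ.

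Other IFNγ-induced genes were examined as lists. Of 6 guanylate binding proteins tested, GTPases that attack intracellular pathogens, 0 were called in limma, edgeR or DESeq2 (median log2 fold change -0.10, 1 higher and 3 lower at an unadjusted p < 0.05 in limma). *GBP5* was 2705 and 2778 CPM with siNC and 2069 and 2125 CPM with siPDL1-1 (log2 fold change -0.39, FDR = 1.77e-04), and *GBP2* was 697 and 723 CPM and 481 and 486 CPM (log2 fold change -0.55, FDR = 2.11e-05). Both were lower in each siPDL1-1 library at an FDR < 0.01 but by less than 1.5-fold, while *GBP1* and *GBP4* had log2 fold changes of 0.13 and 0.03.

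Of 21 genes of HLA class I and peptide loading tested, 1 rose (4.76%, against 3.76% of all genes, median 0.07). It was *TAP2*, a subunit of the peptide transporter, at 388 and 379.8 CPM with siNC and 732 and 684 CPM with siPDL1-1 (log2 fold change 0.88, FDR = 1.14e-06). *HLA-B* and *B2M* had log2 fold changes of 0.10 and -0.03. Of 15 class II genes tested, 12 had a log2 fold change below 0 (median -0.16), and *CIITA*, their transactivator, was 108 and 103 CPM with siNC and 76.2 and 72.0 CPM with siPDL1-1 (log2 fold change -0.51, FDR = 4.05e-04, under the fold threshold). The 1 class II gene called (6.67% of the 15) was *HLA-DOB*, which rose by 0.66 on the log2 scale. It overlaps *AL669918.1* on the same strand, which averaged 27.0 CPM with a log2 fold change of 1.16, and its call was lost in several other settings, among them the fit of only the 4 libraries (FDR = 0.0179 in limma).

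*IDO1*, the enzyme that starts tryptophan breakdown and restrains T cells, fell. It was 508 and 516 CPM with siNC and 243 and 233 CPM with siPDL1-1, 0.465 times the siNC mean (log2 fold change -1.10, standard error 0.0527, FDR = 1.73e-07). It was the 1 gene called of 9 tryptophan and kynurenine enzymes tested (11.1%, against 1.76% lower over all genes). *KYNU*, further along the pathway, had a log2 fold change of -0.47 (FDR = 0.0102). The CXCR3 ligands attract activated T cells. *CXCL11* was 61.7 and 67.2 CPM with siNC and 25.0 and 32.5 CPM with siPDL1-1 (log2 fold change -1.15, FDR = 5.64e-05). *CXCL10* was 285 and 309 CPM with siNC and 226 and 261 CPM with siPDL1-1 (log2 fold change -0.29, FDR = 0.0146), and *CXCL9* was 39.8 and 37.6 CPM and 27.7 and 30.8 CPM (log2 fold change -0.39, FDR = 0.00401). Both siPDL1-1 libraries lay below both siNC libraries for each of the 3 ligands, but of these only *CXCL11* was called.

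Of 10 immunosuppressive genes, a list that the paper draws up for other glioblastoma cells, 3 rose and 1 fell. *LGALS9*, which encodes galectin-9, was 31.2 and 29.8 CPM with siNC and 82.1 and 75.2 CPM with siPDL1-1 (log2 fold change 1.34, FDR = 1.42e-06). *SOCS1* also rose, as did the nitric oxide synthase *NOS2*, from 1.59 and 1.72 to 3.94 and 3.67 CPM (log2 fold change 0.86). *IDO1* fell, and besides *CD274*, *PDCD1LG2* (PD-L2), *FAS*, *IL20RA*, *CSF1* and *TDO2* had log2 fold changes from -0.03 to 0.49 and were not called. Around *CD274* on chromosome 9, 1 of 8 genes was called, *JAK2*, which rose (12.5%, against 3.76% of all genes). *RIC1*, on the other side, had a log2 fold change of 0.49 (FDR = 2.73e-04, under the fold threshold).

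**Figure D3:**
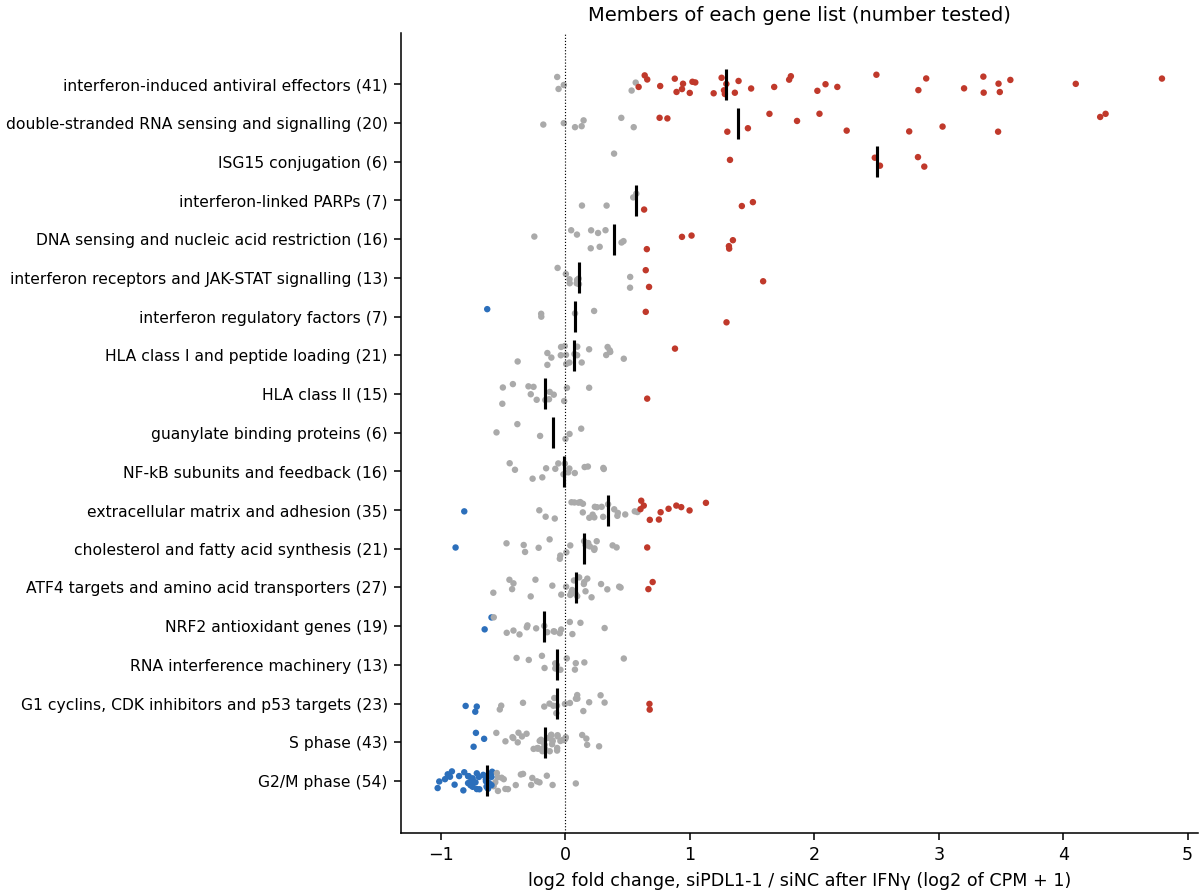
Each point is 1 tested gene of the list named at the left, with its log2 fold change, siPDL1-1 against siNC after IFNγ (x). Red points were called higher, blue points lower and grey points were not called, and the black bar is the median, which is 1.29 for the antiviral effectors, 2.51 for ISG15 conjugation, -0.10 for the guanylate binding proteins and -0.63 for the G2/M-phase genes.

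Genes of cell division made up the list with the most decreases. Of 54 G2/M-phase genes tested, 35 fell and 0 rose in limma (34 and 35 fell and 0 rose in edgeR and DESeq2, and 51 were lower and 0 higher at an unadjusted p < 0.05), against 1.76% lower over all genes, with a median log2 fold change of -0.63. *CDK1*, the kinase that drives mitosis, was 142 and 149.9 CPM with siNC and 68.4 and 80.5 CPM with siPDL1-1 (log2 fold change -0.97, FDR = 1.54e-05). *TTK*, a spindle checkpoint kinase, was 56.9 and 57.1 CPM with siNC and 26.2 and 28.8 CPM with siPDL1-1 (log2 fold change -1.03, FDR = 6.23e-06). *MKI67*, the proliferation marker, was 709.9 and 705 CPM with siNC and 405 and 377 CPM with siPDL1-1 (log2 fold change -0.85, FDR = 1.22e-05). The libraries of the 2 siRNAs did not overlap for any of these 3. *TOP2A*, the topoisomerase, was 662 and 683 CPM and 430.3 and 448 CPM (log2 fold change -0.61), a call that was lost by the fold threshold without siPDL1-1 replicate 1 (log2 fold change -0.58). *HMMR* was the 1 member with a log2 fold change above 0 (0.08, not called).

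The mitotic cyclin *CCNA2* and the chromokinesin *KIF4A*, which are not in that list, were among the 15 largest decreases. *CCNA2* was 145 and 139 CPM with siNC and 57.7 and 68.4 CPM with siPDL1-1 (log2 fold change -1.16, FDR = 4.19e-06). *KIF4A* was 101 and 103 CPM with siNC and 41.8 and 43.5 CPM with siPDL1-1 (log2 fold change -1.24, FDR = 7.32e-07). Each overlaps a gene on the opposite strand, *EXOSC9* (log2 fold change -0.32) and *PDZD11* (-0.45). Of 43 S-phase genes tested 3 fell (6.98%, against 1.76% of all genes), and the median was -0.17. The helicase *BLM* fell by 0.74, *RAD51AP1* by 0.72 and the uracil glycosylase *UNG* by 0.65 on the log2 scale. *E2F1*, the transcription factor of S-phase entry, was 30.4 and 29.4 CPM with siNC and 16.6 and 16.9 CPM with siPDL1-1 (log2 fold change -0.80, FDR = 4.15e-05). Of 23 G1 and p53-target genes tested, 3 fell (13.0%, against 1.76% of all genes) and 2 rose (8.70%, against 3.76%). *E2F1*, *MDM2* (-0.71) and *RRM2B* (-0.72) fell, *CCND3* (0.67) and *BTG2* (0.68) rose, and *CDKN1A*, the p21 gene, had a log2 fold change of 0.04. In bulk RNA, fewer dividing cells and less RNA per cell cannot be told apart.

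**Figure D4:**
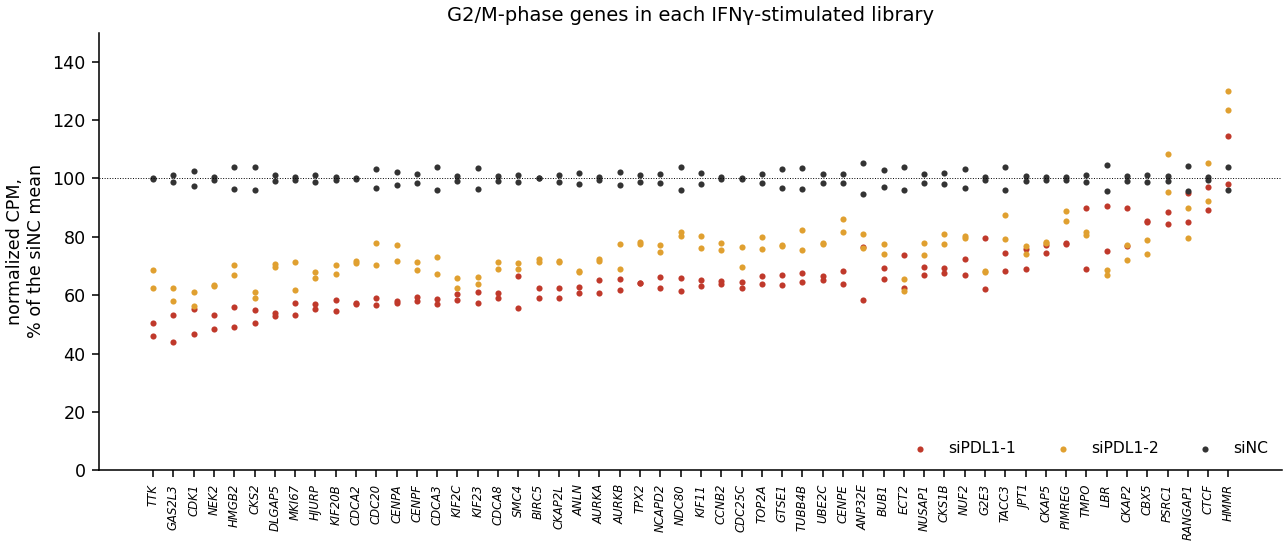
For each tested G2/M-phase gene (x, ordered by its fold change), each point is the CPM of 1 IFNγ-stimulated library as a percentage of the siNC mean (y, from 0). The siPDL1-1 libraries (red) run from 43.8% at *GAS2L3* to 114% at *HMMR*, and most of the siPDL1-2 libraries (yellow) lie between them and siNC (black), at a median log2 fold change of -0.43.

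The most abundant genes that fell were *TUBA1B*, *HSP90AA1*, *NEAT1*, *MKI67* and *TOP2A*. *TUBA1B*, an alpha-tubulin, was 1732 and 1755 CPM with siNC and 925 and 895 CPM with siPDL1-1 (log2 fold change -0.94, FDR = 3.07e-07), and its coding sequence resembles those of other tubulins, which leaves the assignment of some reads uncertain. *HSP90AA1*, the inducible HSP90 chaperone, was 1362 and 1432 CPM with siNC and 698 and 702 CPM with siPDL1-1 (log2 fold change -0.99, FDR = 2.74e-07). *NEAT1*, the RNA scaffold of paraspeckles, was 806 and 825 CPM with siNC and 517 and 535 CPM with siPDL1-1 (log2 fold change -0.63, FDR = 1.40e-05).

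The remaining large decreases did not belong to 1 pathway. *GPAT3*, a glycerolipid acyltransferase, was 15.6 and 15.2 CPM with siNC and 6.38 and 5.32 CPM with siPDL1-1 (log2 fold change -1.27). *ATP1B1*, the beta subunit of the sodium pump, was 94.3 and 98.2 CPM with siNC and 36.8 and 43.0 CPM with siPDL1-1 (log2 fold change -1.26). *SRPRA*, the receptor of the signal recognition particle, was 237 and 235 CPM with siNC and 104 and 102 CPM with siPDL1-1 (log2 fold change -1.19, FDR = 1.00e-07). These 3 had fallen to between 0.379 and 0.436 times the siNC mean. *RMND5A*, a subunit of a ubiquitin ligase, fell from 35.3 and 36.8 to 14.4 and 15.4 CPM (log2 fold change -1.22), and *PAF1*, a subunit of an elongation complex, from 86.9 and 85.4 to 37.6 and 36.0 CPM (log2 fold change -1.21). *IFRD2* (-1.18), the membrane glycoprotein *GPM6A* (-1.12), the noncoding *LINC00052* (-1.10) and the ciliary kinase *CILK1* (-1.09) completed the group on the log2 scale. *ATP1B1*, *SRPRA*, *PAF1* and *CILK1* overlap other expressed genes on the opposite strand.

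The 2 decreases past 4-fold both rest on uncertain reads. *UTP14C* was 10.6 and 4.44 CPM with siNC and had 0 reads with siPDL1-1, at least 53.2-fold lower against 3 reads per siPDL1-1 library. It overlaps *ALG11* on the same strand, which averaged 50.7 CPM with a log2 fold change of 0.12, and the call was lost without either siPDL1-1 library (FDR = 0.0433 and 0.0523 in limma), with DESeq2 (FDR = 0.0251) and with edgeR's quasi-likelihood test (FDR = 0.0971). *H2AC18*, a histone gene with a nearly identical copy, was 2.58 and 4.98 CPM with siNC and had 0 reads with siPDL1-1, at least 26.8-fold lower by the same floor. It was also at 0 in both unstimulated siNC libraries, and its call was lost without either siPDL1-1 library and when all 12 libraries were fitted together (FDR between 0.0154 and 0.146 in limma).

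Several genes outside the interferon response rose. Of 35 genes of extracellular matrix and adhesion tested, 11 rose (31.4%, against 3.76% of all genes) and 1 fell (2.86%, against 1.76%). The median was 0.34. *COL5A1*, a fibrillar collagen chain, was 257 and 228 CPM with siNC and 571 and 492 CPM with siPDL1-1 (log2 fold change 1.13, FDR = 5.05e-06). *COL1A2* was 73.7 and 74.1 CPM with siNC and 159 and 139 CPM with siPDL1-1 (log2 fold change 1.00, FDR = 3.85e-06). The other increases were *COL6A1* (0.93), *MMP14* (0.89), *THBS1* (0.83), *COL6A2* (0.76), *COL4A1* (0.75), *MMP2* (0.68), *FN1* (0.63), *ITGA5* (0.61) and *TIMP3* (0.60), as log2 fold changes.

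*PSAT1*, the transaminase of serine synthesis, was 52.2 and 53.1 CPM with siNC and 156 and 158 CPM with siPDL1-1 (log2 fold change 1.56, FDR = 1.57e-08). Of 10 genes of serine and one-carbon synthesis tested, 2 rose (20%, against 3.76% of all genes), *PSAT1* and the mitochondrial *ALDH1L2* (0.76). The median was -0.10. *ALDH1L2* averaged 5.34 CPM and overlaps *WASHC4* (79.0 CPM, log2 fold change 0.41) and *C12orf45* (12.1 CPM, -0.13) on the opposite strand. *NEK7*, a kinase needed by the NLRP3 inflammasome, was 11.1 and 13.3 CPM with siNC and 29.0 and 38.8 CPM with siPDL1-1 (log2 fold change 1.39, FDR = 5.01e-05). *MLKL*, the effector of necroptosis, was 23.6 and 24.1 CPM with siNC and 47.9 and 47.6 CPM with siPDL1-1 (log2 fold change 0.97, FDR = 5.94e-06). *NEK7* and *MLKL* were the 2 called of 24 genes of cell death tested (8.33%, against 3.76% higher over all genes). In 4 further lists the counts were small. Of 27 ATF4 targets and amino acid transporters 2 rose (7.41%, against 3.76% of all genes). Of 19 NRF2 genes 2 fell (10.5%, against 1.76% of all genes), a count that depended on the settings, with 1 in edgeR and in DESeq2. Of 21 cholesterol and fatty acid genes 1 rose and 1 fell (4.76% each). *SC5D* rose, a call lost by the fold threshold without siPDL1-1 replicate 2, at a log2 fold change of 0.53, and *INSIG1* fell. Of 13 genes of RNA interference 0 were called in limma, edgeR or DESeq2 (1 higher and 4 lower at an unadjusted p < 0.05 in limma).

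*MT-ND2* and *MT-CYB*, which the mitochondrial genome encodes, were among the 5 most abundant genes that rose. *MT-ND2* was 2076 and 2066 CPM with siNC and 2904 and 3346 CPM with siPDL1-1 (log2 fold change 0.59, FDR = 2.20e-04), and its call was lost by the fold threshold without siPDL1-1 replicate 2 (log2 fold change 0.49). *MT-CYB* was 906 and 941 CPM with siNC and 1426 and 1506 CPM with siPDL1-1 (log2 fold change 0.67, FDR = 8.48e-06). All 13 protein-coding genes of the mitochondrial genome, a list added after these values were seen, had a log2 fold change above 0, with a median of 0.24.

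Without IFNγ, siPDL1-1 and siNC differed in 720 of 17982 genes tested (4%), 459 higher (2.55%) and 261 lower (1.45%), in libraries that the comparison after IFNγ did not use. Of the 644 genes that rose after IFNγ, 277 (43.0%) also rose without it, which is 60.6% of the genes that rose there. Of the 302 that fell after IFNγ, 160 (53%) also fell without it, 61.5% of those that fell there. Over 17148 genes, the log2 fold changes with and without IFNγ had a Pearson's r of 0.653, across genes that are not independent. *SRPRA* was 247 and 242 CPM with siNC and 108 and 108 CPM with siPDL1-1 without IFNγ (log2 fold change -1.17), close to its change after IFNγ. *PSAT1*, *NEK7*, *COL1A2* and *TUBA1B* likewise had log2 fold changes of 1.43, 1.57, 0.94 and -0.81 without IFNγ, all called.

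The difference between the effects with and without IFNγ was tested as an interaction. It was called for 174 genes (0.968%), 160 with a higher (0.89%) and 14 with a lower (0.0779%) siPDL1-1 effect after IFNγ. These included 128 of the 644 genes that rose and 7 of the 302 that fell. Much of the antiviral list was among them. For 30 of its 41 genes the effect was higher after IFNγ, and the median siPDL1-1 log2 fold change was 0.28 without IFNγ, where 10 genes rose, against 1.29 with it. *HERC5* averaged 14.8 ± 0.136 CPM (SD, n = 2) with siNC and 14.8 ± 0.186 CPM with siPDL1-1 without IFNγ, a log2 fold change of 0.00, and the interaction was 2.53 (FDR = 1.51e-10). *OAS3* was 21.2 and 19.8 CPM and 23.6 and 24.1 CPM without IFNγ (log2 fold change 0.21), with an interaction of 2.55 (FDR = 7.79e-11). *DDX58* was 11.6 and 12.1 CPM and 16.6 and 18.9 CPM (log2 fold change 0.55), with an interaction of 2.48 (FDR = 2.43e-10). A smaller increase without IFNγ was called for some of the same genes, such as *IFIT1*, at 9.69 and 8.55 CPM with siNC and 19.5 and 18.8 CPM with siPDL1-1 (log2 fold change 1.00, FDR = 4.77e-08).

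Of the G2/M-phase genes, 15 of 54 fell without IFNγ (median -0.52), and the interaction was called for 0 of 54 in limma, edgeR or DESeq2, with 23 lower and 1 higher at an unadjusted p < 0.05 in limma. Of the matrix genes 10 of 36 rose without IFNγ (median 0.33). Among genes with a lower effect after IFNγ, *HILPDA*, a lipid droplet protein, was 140.3 and 139 CPM with siNC and 145 and 144 CPM with siPDL1-1 without IFNγ, and 146 and 151 CPM and 96.1 and 91.8 CPM with it (interaction -0.70, FDR = 3.98e-06). *CLIC2* had an interaction of -1.16 and *CXCL11* of -1.16, and both calls were lost under some of the other settings. For *CXCL11* and *IDO1* the unstimulated levels were at most 0.196 CPM, so the size of the interaction depends on the pseudocount, and that of *IDO1* (-0.92 in limma) had the opposite sign in both count models and with a pseudocount of 0.1 CPM. In unstimulated cells *CD274* was 4.60 and 4.91 CPM with siNC and 2.67 and 2.73 CPM with siPDL1-1, a log2 fold change of -0.64 that was called (FDR = 1.76e-05), and its interaction was 0.43 (FDR = 0.0399, not called).

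**Figure D5:**
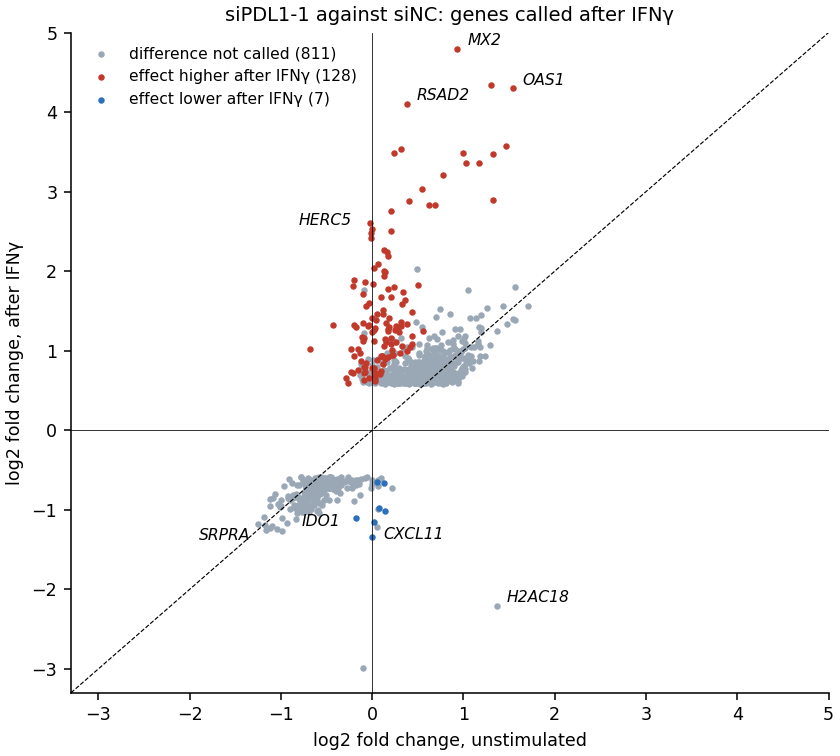
Each point is 1 of the 946 genes called after IFNγ, with its siPDL1-1 log2 fold change without IFNγ (x) and after IFNγ (y), and the dashed line marks equal changes. The 128 red genes, *MX2* and *RSAD2* among them, had a higher effect after IFNγ by the interaction test, the 7 blue genes a lower one, and the 811 grey genes were not called for a difference.

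The second siRNA shared the siNC libraries, so values are given side by side and the difference between the siRNAs was tested. After IFNγ, 362 genes (2.11%) differed between siPDL1-1 and siPDL1-2, 296 higher (1.73%) and 66 lower (0.385%) with siPDL1-1. Of the 41 antiviral effectors 35 were higher with siPDL1-1. *MX2* was 5.51 and 5.98 CPM with siPDL1-2 against 144 and 138 CPM with siPDL1-1 (log2 difference 4.39, FDR = 8.61e-11). *IFIT1* was 34.2 and 35.6 CPM with siPDL1-2 against 581 and 613 CPM (log2 difference 4.06, FDR = 2.98e-11). *CCL5* was 0 and 0.0661 CPM with siPDL1-2 against 12.4 and 13.9 CPM (log2 difference 3.77). The siPDL1-2 libraries lay above both siNC libraries for *MX2* and below both for *IFIT1* and *CCL5*.

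*CD274* was 37.5 and 35.0 CPM with siPDL1-2, lower than with siPDL1-1 (log2 difference 0.80, FDR = 5.03e-05). The CXCR3 ligands were higher with siPDL1-1 than with siPDL1-2 where called. *CXCL10* was 69.7 and 72.5 CPM with siPDL1-2 (log2 difference 1.76, FDR = 7.60e-08) and *CXCL11* was 17.2 and 15.6 CPM (log2 difference 0.76, FDR = 0.00184), so siPDL1-1 lay between siNC and siPDL1-2 for both.

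Among the genes that fell with siPDL1-1, *SRPRA* was 272 and 265 CPM with siPDL1-2 (log2 difference -1.37, FDR = 3.34e-08), and *PAF1*, *RMND5A*, *INSIG1* and *NPTN* differed by -1.27, -1.40, -1.02 and -0.81 on the log2 scale. For each of these 5 genes both siPDL1-2 libraries lay above both siNC libraries. The G2/M-phase genes differed between the siRNAs in 0 of 54 cases in limma, edgeR or DESeq2, with a median log2 difference of -0.23 (median log2 fold changes against the shared siNC libraries of -0.63 with siPDL1-1 and -0.43 with siPDL1-2) and 41 genes lower with siPDL1-1 at an unadjusted p < 0.05 in limma. *IDO1*, at 237 and 244 CPM with siPDL1-2, differed by -0.01 (FDR = 0.891, standard error 0.0527). *PSAT1* (-0.13) and *TUBA1B* (0.03) were not called either. The depth of 1 siPDL1-2 library was the lowest of the series, and without either siPDL1-2 library the counts fell to between 175 and 188 genes higher and between 27 and 31 lower.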

How the data were processed

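RNA of 12 samples of U251 cells was sequenced, and the authors deposited a table of normalized CPM for 45416 genes (a signal of reads scaled to a common library size, aligned to GRCh38 with CLC Genomics Workbench per the labels and methods). Reads were counted on both strands although the kit is stranded. Every deposited CPM value was a whole number of reads (tolerance 0.01 reads) times 1 factor per library, and these factors equalled edgeR's TMM factors, so the reads were recovered. In the 4 libraries compared, 1 read was worth 0.0187 to 0.0470 CPM. No 2 libraries of a group agreed within sampling noise (mean chi-square per gene 1.85 to 7.76).

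Genes were kept by edgeR's filterByExpr (minimum count 10, minimum total 15). Log2(CPM + 1) values were fitted with limma 3.58.1 (trend and robust) in R 4.3.3, in 3 groups for the 6 IFNγ libraries and in 6 groups for all 12 libraries where unstimulated cells or the interaction were tested. Genes were called where limma's Benjamini-Hochberg FDR was below 0.01 and the level differed by more than 1.5-fold. The steps were tested on simulated data. Alternatives were edgeR 4.0.16 (quasi-likelihood) and DESeq2 1.42.0 on the recovered reads, another scaling, filter, pseudocount, set of libraries or threshold, a replicate block, and leaving out each library.

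The genes named were those the study names, the 15 largest increases and decreases among called genes of at least 1 CPM, the 5 most abundant called genes in each direction, up to 4 genes with the smallest p of each list, and the 5 genes in each direction with the smallest p in the interaction and against siPDL1-2. Further members of lists were named after their values were seen. The comparison and the lists were chosen with earlier results of these data known. Some genes that this rule names are not reported here.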

Additional observations from a re-analysis of the deposited data

Results flagged for a closer look

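The effect of siPDL1-1 differed between cells with and without IFNγ for 174 genes by limma's interaction test, and was higher after IFNγ for 160 of them and lower for 14. Among genes called both in this test and after IFNγ, those with the smallest p on the higher side were *OAS3*, with a difference of the log2 fold changes (after IFNγ minus unstimulated) of 2.55, *HERC5* with 2.53, *IFIT1* with 2.49, *DDX58* with 2.48 and *IFIT2* with 2.19. On the lower side they included *HILPDA* with -0.70, *IDO1* with -0.92, and *CLIC2* and *CXCL11* with -1.16 each. The difference for *IDO1* was positive with DESeq2 (2.29), with edgeR (1.98) and with a pseudocount of 0.1 (0.029), and the call of *CXCL11* was lost in the same 3 settings. The call of *CLIC2* was lost with no filter and without some of the libraries.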

How the results depend on the processing

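Over 9 alternatives to the settings of the comparison after IFNγ (count models, scaling, filter, pseudocount, libraries fitted, replicate block), between 599 and 788 genes rose and between 284 and 325 fell. Leaving out 1 library at a time gave 524 to 805 that rose and 278 to 416 that fell. edgeR called 788 and 323 genes and DESeq2 684 and 293. Without the fold threshold, 1378 rose and 1314 fell after IFNγ, 561 were higher and 269 lower than with siPDL1-2, 1763 rose and 1616 fell in unstimulated cells, and 68 had a lower effect after IFNγ. That last count was 35 at an FDR < 0.05, 9 with DESeq2, with edgeR and with no filter, and 11 to 50 when 1 library was left out, the 50 without siPDL1-1 IFNγ replicate 2. Against siPDL1-2, leaving out 1 library gave 175 to 304 genes higher and 27 to 78 lower, with 188 and 27 without siPDL1-2 replicate 1 and 175 and 31 without siPDL1-2 replicate 2.

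Of the named genes, 2096 results had the same direction and call as in the comparison, 55 lost a call, 4 gained one and 7 changed sign. Those that changed sign were *FAS* (-0.088 to 0.024 when 1 library was left out), *RCL1* (-0.013 to 0.070), *INSL6* (-0.46 to 0.016), *IL20RA* (-0.077 to 0.17) and the interaction of *IDO1* (2.29 with DESeq2, 1.98 with edgeR, 0.029 with a pseudocount of 0.1), none of which was past the FDR threshold when its sign changed. For *IDO1* the unstimulated reads were at most 4 in a library, and otherwise the cause was not tested. *NQO1* lost its call by the fold threshold with both count models and both other scalings. Across settings the median log2 fold change of all genes lay between -0.017 and 0.0093, against -0.0060 in the comparison.

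Libraries with the same replicate number did not deviate together throughout. The correlation of their deviations was 0.194 between siNC and siPDL1-1 after IFNγ and -0.132 between siNC with and without IFNγ, so the numbers were not taken to pair the samples. With the replicate block, 630 genes rose and 303 fell after IFNγ, 274 were higher and 56 lower than with siPDL1-2, 460 rose and 261 fell in unstimulated cells, and the interaction was called for 153 and 13. *HLA-DOB* (FDR = 0.0124) and *CDH5* (FDR = 0.0115) lost their calls under the block in limma. With 2 libraries a group, 1 library can decide a call near a threshold, and for genes near 1 CPM the pseudocount of 1 lowers the fold change.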
